A study of Homo sapiens with 2 samples.

Results

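Cyclins, the cyclin-dependent kinases they switch on, and the inhibitors, phosphatases and kinases that set the activity of these complexes were followed as 45 listed genes in cells of PLC/PRF/5, a human line established from a hepatocellular carcinoma. The members were taken by name: every probe set that the array annotation pairs with exactly 1 gene symbol was kept where that symbol was on the list. This found 117 probe sets for 44 of the 45 genes, out of 41091 probe sets of 1 gene and 19775 genes on the array. CDKN2C was not analysed here. CCND2 lay below the floor on both arrays, which left 43 members with a difference, all 13 of the transcriptional class, all 8 of the remaining class and 22 of the 24 of the cell cycle class.

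The study has 2 groups, and the RNA of each was read on 1 Affymetrix U133 array. The hepatospheres are PLC/PRF/5 cells grown as spheroids and treated with cisplatin, which crosslinks DNA, in combination with doxorubicin, which poisons topoisomerase II, and they are labelled chemoresistant. The differentiated cells came from spheroids of the same line that received fetal bovine serum (FBS) and were left to attach, and the labels do not say whether those spheroids had been given the drugs. Drug, serum, attachment and culture form therefore cannot be told apart, and with no replicate no difference has an error or a test. The sources used here give neither doses nor durations.

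Values are linear MAS5 signals in arbitrary units. A gene's value is that of its brightest probe set by mean log2 signal, and a difference is the log2 signal in hepatospheres minus that in differentiated cells. The floor was 84.1 signal units, the higher of the 2 array medians. A signal below it was raised to it before logs were taken, so that a fold with 1 array below the floor is a lower bound, written "at least". All 7 hepatocyte and hepatoma markers looked at were above the floor on both arrays, with summed signals of 115936 in hepatospheres and 74385 in differentiated cells. In hepatospheres ALB read 2.71-fold and TTR 5.62-fold higher and AFP 5.66-fold lower, while SERPINA1, FGB, APOB and APOA1 lay within 2-fold. Markers of other cell types were above it on at least 1 array in 3 of 4 cases for fibroblasts (LUM, COL1A1 and DCN, not COL1A2), 1 of 3 for endothelium (PECAM1, not VWF or CDH5) and 1 of 3 for leukocytes (LYZ, not PTPRC or CD3E). Their summed signals were 3322 in hepatospheres and 373 in differentiated cells for the fibroblast markers (2677 of LUM in hepatospheres, 290 of COL1A1 in differentiated cells), 3821 in hepatospheres and 3425 in differentiated cells for the endothelial ones, and 10510 in hepatospheres and 6458 in differentiated cells for the leukocyte ones. The MKI67, PCNA and TOP2A signals summed to 7928 in hepatospheres and 16559 in differentiated cells. The part that the share of dividing cells has in the differences of the members was not tested, and in such bulk RNA fewer dividing cells and less RNA per cell cannot be told apart.

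Cyclins are named for levels that rise and fall in the division cycle, and most of them bind a partner kinase that is inactive alone. D-type cyclins with CDK4 start the phosphorylation of the retinoblastoma protein, E-type and A-type cyclins with CDK2 carry cells into and through S phase, and B-type cyclins with CDK1 drive mitosis. INK4 proteins block CDK4, KIP proteins block further cyclin-kinase complexes, WEE1 and PKMYT1 add inhibitory phosphates to CDK1, and CDC25 phosphatases remove them. Another branch of the family does not time division: the transcriptional cyclins and kinases act on RNA polymerase II and on the Mediator complex, and most of them do not rise and fall with division.

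At the deposited scaling, most cell cycle members read lower in hepatospheres, and most transcriptional members lay within 2-fold, as most genes did. Of 22 measured cell cycle members, 12 (54.5%) were at least 2-fold lower in hepatospheres, where 8.83% of all 12766 genes at or above the floor were, and 3 (13.6%) were at least 2-fold higher, against 12.5% of all genes. Of 13 transcriptional members, 1 (7.69%) was at least 2-fold lower, near the share of all genes, and 0 were higher. The other 12 lay within 2-fold, where 10038 of all 12766 genes did. The median difference was -1.11 over cell cycle members, 0.14 over transcriptional members, 0.00 over the 8 remaining members and 0.05 over all genes. The 3 cell cycle members that were higher are all inhibitors, CDKN2B, CDKN1C and CDKN2D. Without the INK4 and KIP inhibitors, all 17 measured cell cycle members lay below 0, where 6034 of all 12766 genes did. Their median was -1.17 and their range -2.33 to -0.03. However, CCNE1 turned to 0.39 when its probe sets were averaged, and CDC25B to 0.02 with quantile normalization and 0.11 with loess. This set leaves out the roles that hold the 3 higher members, so its direction depends in part on that choice.

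**Figure D1:**
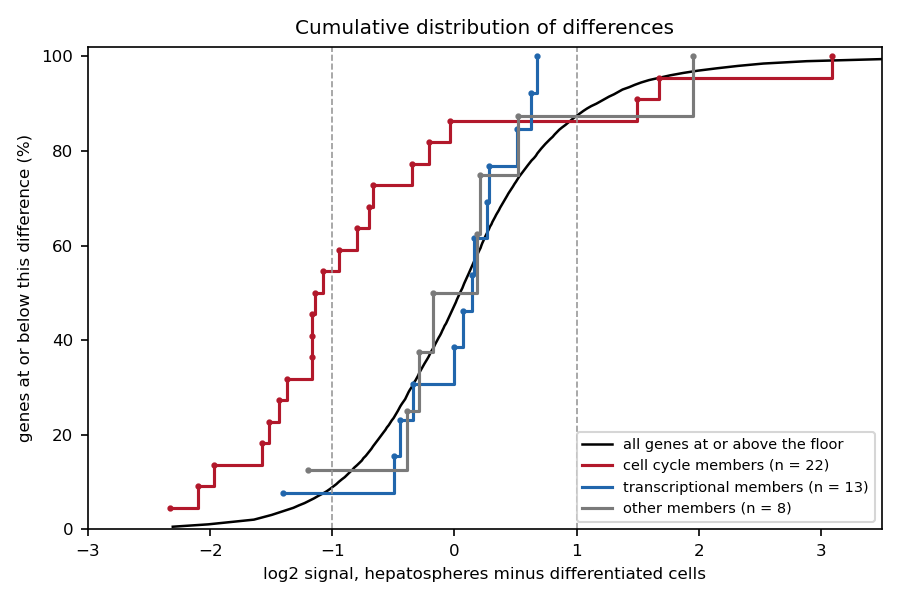
Cumulative share of genes (y axis, percent) at or below each log2 difference, hepatospheres minus differentiated cells (x axis), for 22 cell cycle, 13 transcriptional and 8 other members and for all 12766 genes, with dashed lines at 2-fold. The cell cycle curve lies left of the curve of all genes up to its 3 highest members, and the transcriptional curve follows that of all genes and ends at 0.68.

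These directions hold relative to the bulk of genes, because MAS5 sets the arrays to a common level. The poly(A) control RNAs, which are meant to be added in a fixed amount, read 2.04-fold higher on the hepatosphere array, as the median over 24 probe sets. Whether equal amounts went into these 2 samples was not tested. When the arrays were scaled to them, the median of all genes shifted by -0.97, 46.5% of genes were at least 2-fold lower and 3.22% higher, and all 13 transcriptional members lay below 0. This scaling moves all genes alike apart from those near the floor, so it bears on the directions and not on the distance between the classes. The ACTB 3' to 5' signal ratio, which grows as RNA is degraded, was 2.64 in hepatospheres and 1.48 in differentiated cells, that of GAPDH was 1.04 in hepatospheres and 0.99 in differentiated cells, and the part of RNA quality in the differences was not tested.

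Among the cyclins of G1 and S phase, all 5 that were measured read lower in hepatospheres, 3 of them at least 2-fold. CCND3, a D-type cyclin, read 733 in hepatospheres and 3683 in differentiated cells, a 5.02-fold lower signal and the lowest difference of all members (-2.33), although with the mean over probe sets it stood at -1.57 and CDK4 at -1.97 was lowest. Only 0.478% of all genes at or above the floor had a lower difference than CCND3. CCND1, the D-type cyclin that growth factor signalling induces, read 1250 in hepatospheres and 2799 in differentiated cells (2.24-fold lower), and its dimmer probe set stood at -0.74. CCND2 read at most 32.0 in hepatospheres and 34.3 in differentiated cells over 4 probe sets, all below the floor, which gives no difference. CCNA2, the cyclin of S phase and early mitosis, read 1071 in hepatospheres and 2765 in differentiated cells (2.58-fold lower), and its other probe set was 4.06-fold lower. The E-type cyclins, which with CDK2 start replication, were nearer to 2-fold from below: CCNE1 read 812 in hepatospheres and 1323 in differentiated cells (-0.70), and CCNE2 read 221 in hepatospheres and 352 in differentiated cells (-0.67). For the D-type cyclin CCND3 and for CCNE1 the difference rests on 1 probe set above the floor.

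The cyclins of mitosis and late cycle were lower as well. CCNB1, which brings CDK1 into mitosis, read 3107 in hepatospheres and 9241 in differentiated cells (2.97-fold lower), and both its probe sets were near this value, at -1.57 and -1.65. CCNB2 read 1819 in hepatospheres and 3504 in differentiated cells, which at -0.95 is just short of 2-fold, while a dim probe set of it stood at 0.04. CCNF, an F-box protein that directs the destruction of cycle proteins and activates no kinase, read 342 in hepatospheres and 927 in differentiated cells (2.71-fold lower).

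All 3 kinases of the division cycle were at least 2-fold lower. CDK4, the partner of D-type cyclins, read 2712 in hepatospheres and 10640 in differentiated cells, a 3.92-fold lower signal on its only probe set. CDK1 read 4433 in hepatospheres and 9959 in differentiated cells (2.25-fold lower), and its 4 probe sets lay between -1.67 and -1.02, all past 2-fold. CDK2 read 1389 in hepatospheres and 2934 in differentiated cells (2.11-fold lower), and another probe set was 4.17-fold lower. CDK4 stood at -1.97 beside CCND1 at -1.16 and CCND3 at -2.33. CDK2 stood at -1.08 beside CCNE1 at -0.70, CCNE2 at -0.67 and CCNA2 at -1.37. CDK1 stood at -1.17 beside CCNA2, CCNB1 at -1.57 and CCNB2 at -0.95. All 17 measured cell cycle members other than INK4 and KIP inhibitors lay below 0. Any pair drawn from them had to stand on the same side, so the pairing adds nothing to that.

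**Figure D2:**
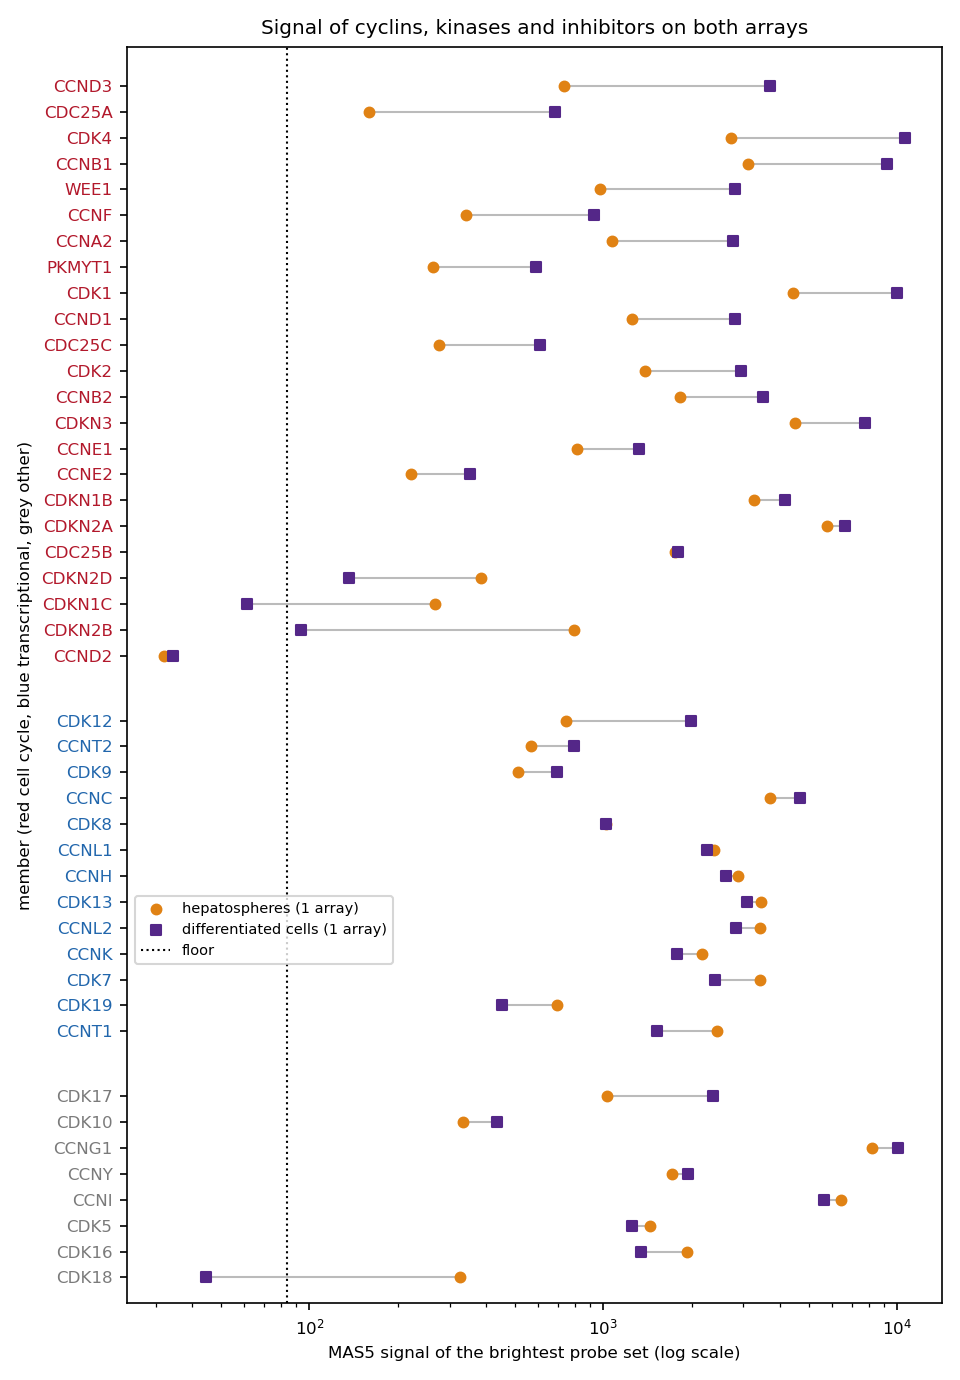
MAS5 signal (x axis, log scale) of the brightest probe set of each of 44 members on the hepatosphere array (circles) and the differentiated array (squares), grouped by class and ordered by difference, with the floor of 84.1 as a dotted line. Nearly all cell cycle members have the circle left of the square, the inhibitors CDKN2D, CDKN1C and CDKN2B have it to the right, and the points of most transcriptional members lie close together.

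The regulators of kinase phosphorylation were lower on both the activating and the inhibiting side. CDC25A, the phosphatase that activates CDK2 at the start of S phase, read 159 in hepatospheres and 683 in differentiated cells, 4.29-fold lower on its brightest probe set. The other 2 CDC25A probe sets were near the floor and gave bounds of -0.17 and -0.06. CDC25C, which activates CDK1 at mitosis, read 275 in hepatospheres and 609 in differentiated cells (2.21-fold lower), with a dim probe set that gave a bound of -0.03. CDC25B, also a mitotic activator, differed from them, at 1759 in hepatospheres and 1803 in differentiated cells (-0.03). The inhibitory kinase WEE1 read 979 in hepatospheres and 2801 in differentiated cells (2.86-fold lower), and its probe sets were close together at -1.52 and -1.44. PKMYT1, the membrane-bound relative of WEE1, read 263 in hepatospheres and 591 in differentiated cells (2.25-fold lower). CDKN3, despite its name a phosphatase that removes the activating phosphate from the kinases, read 4486 in hepatospheres and 7790 in differentiated cells (-0.80), with its second probe set at -0.89.

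Of the 5 measured inhibitors that bind the kinases, 3 were at least 2-fold higher, where 12.5% of all genes were, and 2 were within 2-fold. CDKN2B (p15), an INK4 inhibitor of CDK4 that TGF-beta induces, read 798 in hepatospheres and 93.6 in differentiated cells, an 8.52-fold higher signal. That lies above 99.2% of all genes, but the signal in differentiated cells is just over the floor, and a second CDKN2B probe set read 66.2 in hepatospheres and 17.3 in differentiated cells, below the floor on both. The CDKN2B difference of 3.09 was 1.45 with the mean over probe sets, 2.06 with the poly(A) scaling, 2.31 with the floor added to the signal and 2.38 under a floor set to the 60th percentile. CDKN1C (p57), a KIP inhibitor and imprinted gene, read 269 in hepatospheres and 61.4 in differentiated cells, at least 3.19-fold higher. All 3 of its probe sets that reached the floor did so in hepatospheres only, so that their direction was fixed by the floor. The 2 besides the brightest gave bounds of 0.85 and 0.36. CDKN1C was short of 2-fold under 3 alternatives, between 0.81 and 0.90, and had no value with the mean over probe sets. CDKN2D (p19), another INK4 inhibitor, read 383 in hepatospheres and 136 in differentiated cells (2.81-fold higher). It stood at 0.43 with the mean over probe sets and 0.46 with the poly(A) scaling. A second CDKN2D probe set read 33.4 in hepatospheres and 11.4 in differentiated cells, below the floor on both.

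The 2 brightest inhibitors lay within 2-fold. CDKN1B (p27), the KIP inhibitor that accumulates in resting cells mainly through protein stability, read 3255 in hepatospheres and 4143 in differentiated cells (-0.35). CDKN2A, the locus of p16 and ARF, read 5781 in hepatospheres and 6675 in differentiated cells (-0.21), and a second probe set stood at -0.51. CDKN2A and CDKN2B are neighbours on chromosome 9, and stood at -0.21 and 3.09. CDKN1A (p21), the p53-induced KIP inhibitor and no member of the list, read 1528 in hepatospheres and 159 in differentiated cells (9.58-fold higher).

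The sequence upstream of transcription starts is printed for 10 members, chosen with their motifs in view to show windows with and without them. Cell cycle promoters are known for CCAAT boxes, which NF-Y binds, for the cell cycle homology region (TTTGAA), which DREAM and MYB-MuvB complexes bind, and for E2F sites, searched here by the core TTGGCGC, by its variant TTCCCGC and by its other variant TTCGCGC. The windows are the 250 bases before a RefSeq start on GRCh38.p14, read 5' to 3' on the gene's strand, and capitals mark any of these motifs on either strand. They are CCNB1 (chr5:69166900-69167149, + strand), CCNB2 (chr15:59104896-59105145, + strand), CCNF (chr16:2429197-2429446, + strand), CCNA2 (chr4:121823884-121824133, - strand), CDK1 (chr10:60778081-60778330, + strand), CDC25A (chr3:48188418-48188667, - strand) and CDK4 (chr12:57752311-57752560, - strand) as members that read lower, CDKN2B (chr9:22009306-22009555, - strand) and CDKN2D (chr19:10568980-10569229, - strand) as members that read higher, and CDK7 (chr5:69234545-69234794, + strand) as a transcriptional kinase.
CCNB1: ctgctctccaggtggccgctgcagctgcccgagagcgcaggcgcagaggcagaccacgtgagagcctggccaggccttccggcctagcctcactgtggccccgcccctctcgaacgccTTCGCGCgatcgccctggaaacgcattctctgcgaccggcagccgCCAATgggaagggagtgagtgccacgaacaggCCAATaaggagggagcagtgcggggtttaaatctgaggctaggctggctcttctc
CCNB2: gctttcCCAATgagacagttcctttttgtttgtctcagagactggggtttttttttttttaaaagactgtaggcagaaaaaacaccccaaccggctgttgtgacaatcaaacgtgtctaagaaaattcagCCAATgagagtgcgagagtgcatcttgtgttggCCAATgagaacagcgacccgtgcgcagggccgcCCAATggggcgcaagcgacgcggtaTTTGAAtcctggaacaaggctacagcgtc
CCNF: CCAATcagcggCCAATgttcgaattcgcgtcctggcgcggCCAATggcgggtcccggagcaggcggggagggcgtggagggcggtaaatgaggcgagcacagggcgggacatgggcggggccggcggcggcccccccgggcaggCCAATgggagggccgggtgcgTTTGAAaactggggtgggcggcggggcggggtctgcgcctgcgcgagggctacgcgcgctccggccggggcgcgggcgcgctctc
CCNA2: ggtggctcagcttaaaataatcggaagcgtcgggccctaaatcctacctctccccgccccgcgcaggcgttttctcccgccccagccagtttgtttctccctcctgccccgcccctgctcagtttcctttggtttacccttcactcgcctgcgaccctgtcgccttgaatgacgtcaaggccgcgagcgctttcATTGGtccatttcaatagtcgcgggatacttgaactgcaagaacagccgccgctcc
CDK1: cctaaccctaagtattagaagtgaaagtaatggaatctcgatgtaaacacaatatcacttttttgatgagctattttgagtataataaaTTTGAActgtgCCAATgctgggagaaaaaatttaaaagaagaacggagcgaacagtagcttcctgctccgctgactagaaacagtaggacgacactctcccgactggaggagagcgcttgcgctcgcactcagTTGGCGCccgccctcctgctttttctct
CDC25A: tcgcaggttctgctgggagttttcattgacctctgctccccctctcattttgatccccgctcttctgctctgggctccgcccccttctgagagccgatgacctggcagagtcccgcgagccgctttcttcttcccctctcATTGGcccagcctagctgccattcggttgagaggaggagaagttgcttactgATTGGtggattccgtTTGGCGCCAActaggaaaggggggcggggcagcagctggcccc
CDK4: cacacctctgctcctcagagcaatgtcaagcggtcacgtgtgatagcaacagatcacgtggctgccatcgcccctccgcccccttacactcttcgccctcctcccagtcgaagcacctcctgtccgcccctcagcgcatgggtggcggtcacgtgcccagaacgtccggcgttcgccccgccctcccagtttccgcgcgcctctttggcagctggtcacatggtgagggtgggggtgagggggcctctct
CDKN2B: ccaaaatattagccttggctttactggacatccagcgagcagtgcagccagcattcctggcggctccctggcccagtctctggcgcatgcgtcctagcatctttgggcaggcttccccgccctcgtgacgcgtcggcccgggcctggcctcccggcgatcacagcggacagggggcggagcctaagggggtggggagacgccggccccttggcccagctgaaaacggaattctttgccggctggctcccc
CDKN2D: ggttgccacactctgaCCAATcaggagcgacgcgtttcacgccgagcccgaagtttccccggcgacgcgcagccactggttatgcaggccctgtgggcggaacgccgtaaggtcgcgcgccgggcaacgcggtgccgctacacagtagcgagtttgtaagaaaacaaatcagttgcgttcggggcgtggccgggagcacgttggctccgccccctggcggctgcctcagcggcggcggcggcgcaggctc
CDK7: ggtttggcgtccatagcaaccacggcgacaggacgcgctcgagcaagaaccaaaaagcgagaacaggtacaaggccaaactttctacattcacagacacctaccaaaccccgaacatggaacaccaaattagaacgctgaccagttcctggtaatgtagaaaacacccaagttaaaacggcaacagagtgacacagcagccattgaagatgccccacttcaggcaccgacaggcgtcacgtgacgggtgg

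CCNB1 held CCAAT 87 and 55 bases and TTCGCGC 132 bases before the start. CCNB2 held CCAAT 4 times, the nearest 54 bases before the start, with TTTGAA 29 bases before it. CCNF held 4 CCAAT boxes and TTTGAA 85 bases before the start, and CCNA2 1 CCAAT box, reversed, 56 bases before it. CDC25A held the E2F core TTGGCGC on both strands, overlapping, and 2 reversed CCAAT boxes. CDK1 held TTGGCGC 28, CCAAT 150 and TTTGAA 161 bases before the start. Another CDK1 window, not printed, held TTTGAA 69 and 13, CCAAT 78 and 46, TTGGCGC 175 and TTCGCGC 127 bases before its start. CDKN2D, which was higher, held CCAAT 234 bases before the start. The windows of CDK4, which was 3.92-fold lower, of CDKN2B and of CDK7, as printed, held none of the motifs. RefSeq promoters were matched for 38 members with 61 windows, several for genes with several starts. A gene with several windows has more places for a match, and the share by window was not counted for members. CDKN2C, which has no signal here, is among the 17 cell cycle members with a promoter. A CCAAT box on either strand stood in at least 1 window of 13 of 17 cell cycle members (76.5%), 6 of 13 transcriptional members (46.2%) and 37.0% of all 27305 genes, and in 32.0% of all windows. TTTGAA stood in 5 of 17 cell cycle members (CCNB2, CCNF, CDK1, CDKN3 and CDC25C), 2 of 13 transcriptional members and 16.1% of all genes, and in 13.3% of all windows. An E2F core stood in 6 of 17, 2 of 13 and 11.2% of all genes, and in 9.32% of all windows. CCAAT boxes also stood in windows of CDKN2D, which was higher, and of CDC25B and CDKN1B, which were within 2-fold. Among members with a promoter, 7 of 10 at least 2-fold lower and 2 of 3 at least 2-fold higher held one. Whether the motif goes with the difference was not tested, and some members, such as CDK2 and WEE1, had no promoter matched. No match says only that these letters are not in the window.

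The transcriptional cyclins were all within 2-fold on their brightest probe sets, from -0.49 to 0.68. CCNT1, the cyclin of the elongation kinase P-TEFb, read 2444 in hepatospheres and 1527 in differentiated cells (0.68), and its dimmer probe set was at least 3.23-fold higher. CCNT2, the alternative cyclin of that kinase, went the other way, at 567 in hepatospheres and 798 in differentiated cells (-0.49), but its 4 probe sets were split between a bound of -0.53 and 0.24. CCNC, the cyclin of the Mediator kinases, read 3709 in hepatospheres and 4682 in differentiated cells (-0.34). CCNK, the cyclin of CDK12 and CDK13, read 2167 in hepatospheres and 1785 in differentiated cells (0.28), and CCNH, the cyclin of CDK7, read 2878 in hepatospheres and 2608 in differentiated cells (0.14). The splicing-linked cyclins CCNL1 and CCNL2 stood at 0.07 and 0.27. All 3 probe sets of each that reached the floor were higher in hepatospheres, from 0.07 to a bound of at least 1.38 in CCNL1 and from 0.19 to 0.67 in CCNL2.

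CDK12, which phosphorylates RNA polymerase II and is known for sustaining long genes and DNA repair genes, was the transcriptional member that was at least 2-fold lower. It read 748 in hepatospheres and 1984 in differentiated cells (2.65-fold lower). Of its 6 probe sets above the floor, 5 were lower, between -1.87 and -0.77 and 3 of them past 2-fold, and 1 read 261 in hepatospheres and 217 in differentiated cells (0.26). Its close relative CDK13 read 3442 in hepatospheres and 3081 in differentiated cells (0.16), with 6 probe sets from -0.73 to a bound of 0.79, and their shared cyclin CCNK stood at 0.28. CDK12 and its cyclin thus stood on opposite sides of 0. So did CDK9 and CCNT1 (-0.44 and 0.68), CDK19 and CCNC (0.63 and -0.34), and CDK16 and CCNY (0.52 and -0.18). Pairs on the same side were CDK7 and CCNH, CDK9 and CCNT2, and CDK13 and CCNK, while CDK8, which pairs with CCNC, stood at 0.00.

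The remaining transcriptional kinases were within 2-fold on their brightest probe sets. CDK7, the kinase of TFIIH and, with CCNH, the activator of the cell cycle kinases, read 3426 in hepatospheres and 2400 in differentiated cells (0.51). The Mediator kinase CDK8 read 1022 in hepatospheres and 1026 in differentiated cells (0.00), and its paralog CDK19 read 697 in hepatospheres and 451 in differentiated cells (0.63). A second CDK19 probe set was 4.65-fold higher, at 644 in hepatospheres and 139 in differentiated cells, and another one stood at 0.77, so the size but not the direction depended on the probe set. CDK9, the P-TEFb kinase, read 513 in hepatospheres and 697 in differentiated cells (-0.44). With CDK12 set aside, a choice made after its value was seen, the 12 others had a median of 0.15 and a range of -0.49 to 0.68.

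**Figure D3:**
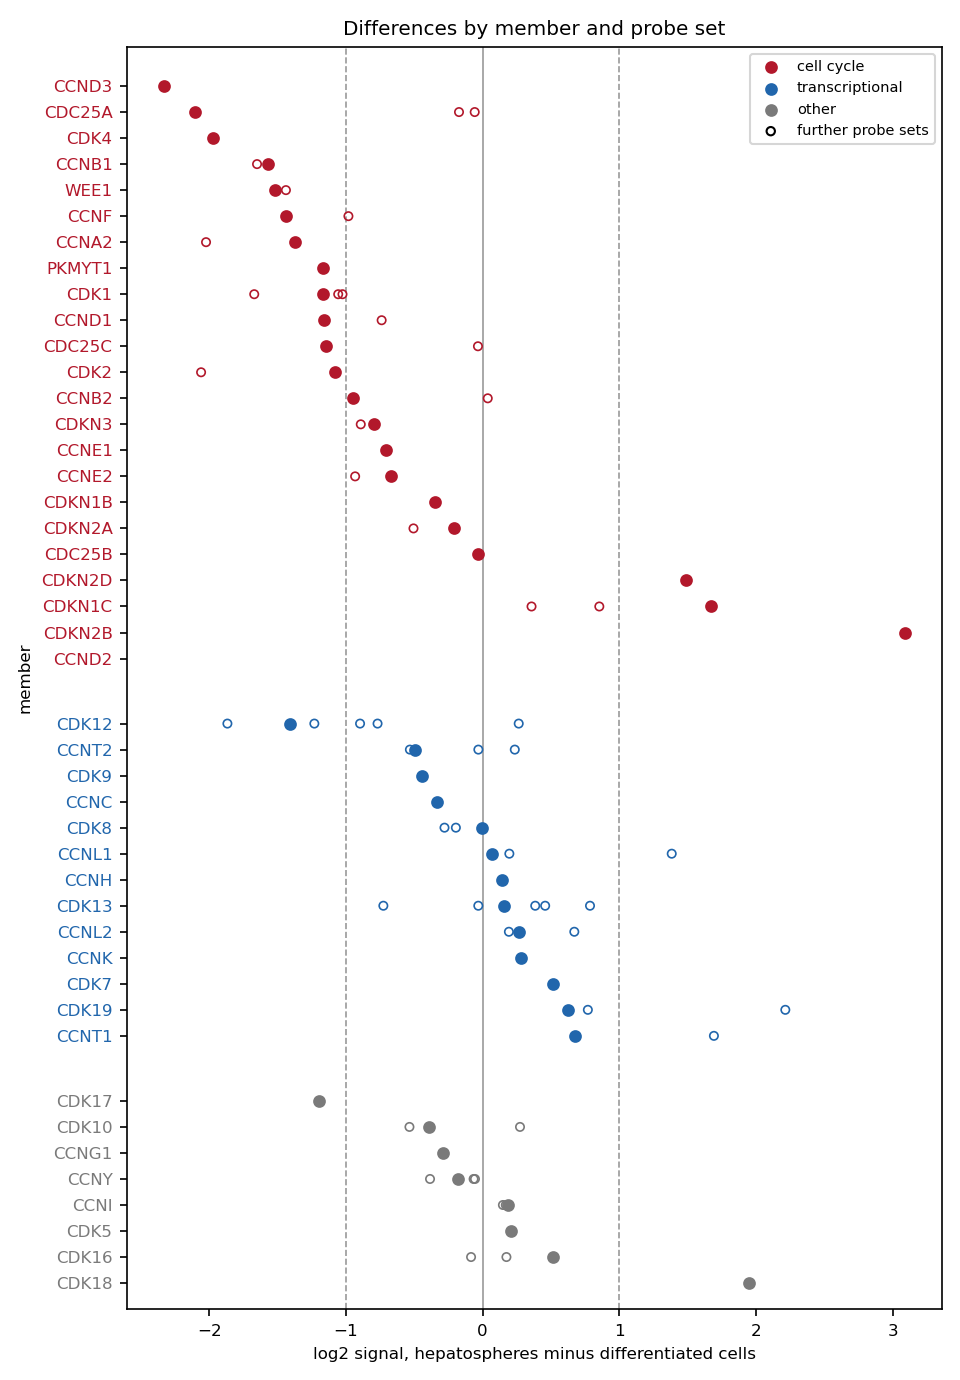
Log2 difference, hepatospheres minus differentiated cells (x axis), of each member's brightest probe set (filled) and its further probe sets at or above the floor (open; those below it on 1 array are bounds), by class, with dashed lines at 2-fold. Cell cycle members lie mostly left of 0, and CDK12, CDK13, CDK19, CCNT1, CCNL1 and CDC25A show probe sets that differ widely in size.

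Over single probe sets the picture was close to that over genes. Of 40 cell cycle probe sets at or above the floor, 19 were at least 2-fold lower (47.5%) and 3 higher (7.50%), where 9.59% and 11.6% of all 23825 probe sets of 1 gene were. Of 35 transcriptional probe sets 3 were lower, all of CDK12, and 3 were higher, 1 each of CCNL1, CCNT1 and CDK19. Among members with at least 2 probe sets above the floor, all probe sets went the same way in 13 of 14 cell cycle members, the exception being CCNB2, and in 5 of 8 transcriptional members, the exceptions being CCNT2, CDK12 and CDK13. Some of these probe sets reached the floor on 1 array only, which fixes their direction, as in CDKN1C, CDC25A, CDC25C, CCNE2, CCNF, CCNL1 and CCNT1. The share of all genes whose probe sets go the same way was not counted, so these counts have no background.

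The 8 remaining members have looser ties to either branch. CDK18, a kinase of the PCTAIRE group, read 326 in hepatospheres and 44.6 in differentiated cells, at least 3.87-fold higher on its only probe set. CDK17, its relative, went the other way, at 1027 in hepatospheres and 2356 in differentiated cells (2.29-fold lower), and the third PCTAIRE kinase, CDK16, read 1923 in hepatospheres and 1342 in differentiated cells (0.52), with 1 of 3 probe sets at -0.08. CCNY, the membrane cyclin that activates CDK16, read 1711 in hepatospheres and 1937 in differentiated cells (-0.18). CDK5, best known from neurons, stood at 0.21, and CDK10 at -0.39 with 3 probe sets from -0.53 to 0.27. CCNG1, a p53 target, read 8248 in hepatospheres and 10059 in differentiated cells (-0.29), and CCNI read 6431 in hepatospheres and 5658 in differentiated cells (0.18). The median of these 8 was at the level of all genes.

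Genes that work with the members were counted the same way, beside 8.83% of all genes at least 2-fold lower and 12.5% higher. Of 30 listed cell cycle partners, all at or above the floor, 15 were at least 2-fold lower (50%) and 2 higher (6.67%), with a median of -1.06. The 4 furthest from 0 were E2F8, a repressor of the E2F family (5.81-fold lower), FOXM1, which drives mitotic genes (4.62-fold lower), the replication licensing factor CDT1 (308 in hepatospheres and 1232 in differentiated cells) and the pocket protein RBL1 (3.96-fold lower). The 2 that were higher are the retinoblastoma gene RB1, at 1008 in hepatospheres and 486 in differentiated cells (2.08-fold), and LIN37, a subunit of the DREAM repressor (2.10-fold). CKS2, which binds the kinases, stood at 0.03. Of 22 measured transcriptional partners, 1 was at least 2-fold lower and 1 higher (4.55% each). Below 0 lay 14 of them, where 6034 of all 12766 genes did, and their median was -0.23 where the transcriptional members had 0.14. The one lower was GTF2H1, a subunit of the TFIIH complex that holds CDK7 (3.82-fold), and the one higher was the elongation factor ELL2 (2.01-fold). HEXIM1, which holds P-TEFb inactive, stood at -0.80, and the NELF subunit NELFCD at -0.88. Of 14 measured further family genes, 2 were at least 2-fold lower (14.3%) and 3 higher (21.4%), with a median of -0.17. The higher ones were CDKN1A, the FOXO target and atypical cyclin CCNG2 (4.15-fold, at 1612 in hepatospheres and 389 in differentiated cells) and CDK20 (2.67-fold), and the lower ones CCNYL1 (2.09-fold) and CCNP (at least 2.03-fold). CDK6, the second partner of D-type cyclins, read 1514 in hepatospheres and 1990 in differentiated cells (-0.39).

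The genes around the members were looked at as well, with no test. For each measured member, the median difference of up to 50 measured neighbours, 25 on each side in RefSeq gene order, lay between -0.47 for WEE1 on chromosome 11 and 0.32 for CCNI on chromosome 4. Around CDK4 and CDK2, both on chromosome 12, it was -0.09 and -0.10, around CCND3 on chromosome 6 -0.12, around CDK12 on chromosome 17 0.09, and around CDKN2B on chromosome 9 -0.04.

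**Figure D4:**
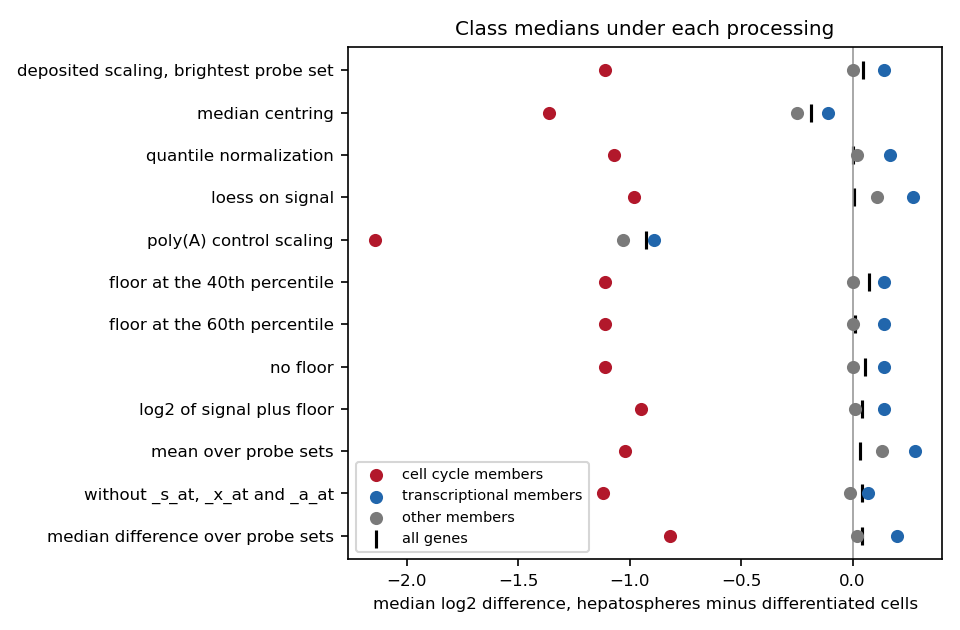
Median log2 difference, hepatospheres minus differentiated cells (x axis), of the cell cycle, transcriptional and other members and of all genes (bars), under the deposited scaling and 11 alternatives (y axis). The cell cycle median is the lowest of the 4 in every row, at -0.82 or lower, and scaling to the poly(A) controls moves all 4 to the left.

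The distance between the cell cycle and transcriptional medians was -1.25. Of the 11 alternatives, median centring, poly(A) scaling and the 3 other settings of the floor could hardly move it, since they shift genes alike or touch only dim members, and all left it at -1.25. The remaining 6 gave -1.31 to -1.02. CCNA2, CCNB1, CCND3, CCNF, CDK1, CDK4, WEE1, CDKN2B and CDK18 stayed at least 2-fold apart under every alternative that gave them a value. CDK4 and CDK18 have 1 probe set each, so the mean and the median over probe sets could not move them. That of CDK18 was below the floor in differentiated cells, so its direction was fixed by the floor. CDC25A stood at -0.17 with the median over its probe sets, CDC25C at -0.59 with the same median, and CDKN2D at 0.43 with the mean over probe sets. That mean also took CDK12 to -0.88, CDK17 to -0.82 and CCND1 to -0.95, short of 2-fold. CDKN1C stood at 0.81 with the floor at the 60th percentile, PKMYT1 at -0.96 with the floor added to the signal, and CDK2 at -0.94 with loess.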

How the data were processed

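Per the labels' protocols, total RNA was extracted by Trizol and given a biotin label. It was read on 2 U133 arrays, 1 per group. The intensity values deposited by the authors are linear MAS5 signals, the method that the submitters' processing notes name. It subtracts background and mismatch brightness, which makes weak signals noisy, and scales each array globally. Its version and scaling target were not given in the sources used here, and detection calls were not used. Signals ranged up to 59912 and the arrays' medians were 84.1 in hepatospheres and 70.6 in differentiated cells. Precision is limited by the number of arrays.

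Of 54675 probe sets, 62 were controls, 1801 paired with several symbols and 11721 were unnamed here. Genes were called at 2-fold. Every member is named, with full values for those at least 2-fold apart and the 4 furthest from 0 in each class, and from each partner list the 4 furthest from 0. Members, classes and lists were chosen with earlier results of these data known. Folds planted without noise into copies of the signals of bright genes were recovered. That outcome was fixed in advance, so it checks the arithmetic only, not dim members or array noise. Alternatives were 4 scalings (loess span 0.3), 4 treatments of the floor and 3 choices of probe set. Gene order and promoters came from RefSeq tables of GRCh38.p14, and 19735 array genes matched. Protein sequences were not used here, so the planned kinase helix motifs were left out. Python 3.11.15, numpy 2.4.6, pandas 2.3.3, statsmodels 0.14.6 and matplotlib 3.10.9 were used.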

Additional observations from a re-analysis of the deposited data

How the results depend on the processing

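No paired analysis was possible because each group has 1 array. Scaling to the poly(A) controls, which shifts the median of all genes by -0.97, moved the class medians to -2.14 (cell cycle), -0.89 (transcriptional) and -1.03 (other). It gave 19 cell cycle, 5 transcriptional and 4 other members at least 2-fold lower, and 1 cell cycle and 1 other member higher. Over all genes, 5764 were lower and 399 higher. Median centring shifted the median of all genes by -0.23 and gave 1902 genes at least 2-fold lower. Averaging over a gene's probe sets left 1 cell cycle member at least 2-fold higher, with 3 transcriptional members higher and 0 lower and 0 other members lower. Leaving out probe sets ending in _s_at, _x_at or _a_at gave 1 transcriptional member higher and 0 other members higher, and the median difference over probe sets also gave 1 transcriptional member higher. That setting without shared probe sets measured 16 cell cycle, 12 transcriptional and 4 other members. The cause of these changes was not tested. Of 461 values of single members under the alternatives, 400 were within 1.5-fold of the main value. Of the other 61, 43 arose with the poly(A) scaling. Among the members at least 2-fold apart, 0 changed direction, but this was in large part fixed in advance. Median centring and the floor settings cannot turn such a member, and the poly(A) scaling only moves the lower ones further down. CDKN1C and CDK18 were below the floor in differentiated cells, which fixed their direction. The mean over probe sets turned CCNE1 to 0.39, CCNC to 0.28 and CCNY to 0.08, and median centring turned CCNH, CCNL1, CDK13, CCNI and CDK5 to between -0.18 and -0.04. Signals near 84.1, such as those of CDKN2B, CDKN1C, CDK18 and CDC25A on the dimmer array, limit their folds.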
